A study of Mus musculus with 9 samples.

Results

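The 42 genes described here encode MYC and its partners MAX and MNT, subunits of RNA polymerase I, and the nucleolar proteins that process ribosomal RNA and assemble ribosomal subunits. They were taken by symbol from a table of 55335 gene rows, in which all 42 symbols were found, each in 1 row. Every one of them passed the filter on low values, at least 1 FPKM in at least 3 of 9 libraries, which 11721 genes passed. Wdr12 passed it through the 3 LPS libraries alone, so its direction against LPS was fixed by the filter. Its lower calls and its separation from LPS in the counts below carry no support.

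Ribosomes are built in the nucleolus, where RNA polymerase I transcribes the precursor of most ribosomal RNA. Small nucleolar ribonucleoproteins (snoRNPs) guide its chemical modification, box C/D particles adding methyl groups and box H/ACA particles converting uridine to pseudouridine, while large processing complexes cut the precursor and fold it with ribosomal proteins. MYC, which needs MAX as its partner to bind DNA, is known as an activator of genes for this machinery, and MNT and the MXD proteins compete with it for MAX. In macrophages MYC is known as a gene whose transcript is induced during activation and proliferation.

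The libraries are bulk RNA-seq of mouse peritoneal macrophages, phagocytes obtained from the abdominal cavity. Cells were held for 1 h in medium and then treated for 4 h, all of them with 1 µg/mL lipopolysaccharide (LPS), a bacterial cell wall component. The LPS+EtOH group also received 5% ethanol, the LPS+CPZ group was given CPZ at 100 µM, an abbreviation that the labels do not spell out, and the LPS group received nothing further. Each group has 3 libraries, each made from a pool of 3 RNA samples, and nothing in the labels ties pools to animals, so the p-values measure the spread between these pools. Age, sex and strain of the mice are not given in the sources used here, and cells without LPS were not analysed here. Values are FPKM, fragments scaled by transcript length and library size, which the authors deposited without read counts, so the depth is unknown. Group values are means ± SD over 3 libraries, and changes are differences of log2(FPKM + 1) with the limma standard error.

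The groups also differed in markers of other cell types. The 11 neutrophil markers summed to 43742 to 48314 FPKM in LPS+EtOH and 6383 to 6889 FPKM in LPS+CPZ, against 3855 to 5422 FPKM in LPS. Of the 9 tested, 9 were called higher in LPS+EtOH, and 3 higher and 2 lower in LPS+CPZ, while Mpo and Elane stayed under 0.05 FPKM in every library. The 8 B cell markers summed to 33.6 to 54.5 FPKM in LPS+EtOH and 133 to 175 FPKM in LPS+CPZ, against 442.5 to 667 FPKM in LPS. All 8 were called lower in both treated groups and none was at 0. The 9 T and NK cell markers summed to 1.06 to 2.42 FPKM in LPS+EtOH and 11.9 to 22.1 FPKM in LPS+CPZ, against 54.3 to 69.8 FPKM in LPS, and the 8 tested were called lower in both treated groups, of which Cd8a and Nkg7 passed the filter through the 3 LPS libraries alone, so that their direction was fixed by it. Trbc2 and Ncr1 were listed at 0 in 2 LPS+EtOH libraries and Cd3e, Cd8a and Nkg7 in 1. Globin genes took 0.172 to 0.221% of all FPKM in LPS+EtOH and 0.0453 to 0.0972% in LPS+CPZ, against 11.5 to 29.4% in LPS. The 8 macrophage markers summed to 2662 to 2989 FPKM in LPS+EtOH and 1047 to 1222 FPKM in LPS+CPZ, against 1604 to 2090 FPKM in LPS, and these sums joined genes that moved in opposite directions. Of the 7 tested, 4 were called lower (Adgre1, Lyz2, Fcgr1 and Marco) and 2 higher (Cd14 and Cd68) in LPS+EtOH, and 5 lower and 1 higher (Cd68) in LPS+CPZ. With libraries scaled so that the typical gene did not change (median-ratio scaling), 2 were called lower and 4 higher in LPS+EtOH. Adgre1 was then among those higher (0.52). That scaling called 3 lower and 2 higher in LPS+CPZ. Of all tested genes, 64.6% were called lower and 19.0% higher in LPS+EtOH as deposited, and 48.4% and 20.7% in LPS+CPZ. Cd14 alone averaged 2177 FPKM in LPS+EtOH and 406 FPKM in LPS+CPZ, against 907 FPKM in LPS, while Lyz2 averaged 226 FPKM in LPS+EtOH and 217 FPKM in LPS+CPZ, against 733 FPKM in LPS. Among the 8, Cd68, Adgre1 and Lyz2 were above 40 FPKM in every library, whereas Mertk stayed under 0.4 FPKM. The part of these cell types in the results below was not tested, and in bulk RNA fewer cells of a type and less RNA per cell cannot be told apart.

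With ethanol added to LPS, all of the set fell on the deposited scale, with Max and Mnt the 2 genes that turned the other way under another scaling. The 42 genes together held 198, 212 and 162 FPKM in the LPS+EtOH libraries, against 1001, 1587 and 1211 FPKM in the LPS libraries. All 42 genes were called lower (adjusted p under 0.05), against 64.6% of all tested genes called lower and 19.0% called higher. A change of at least 1 on the log2 scale was passed downwards by 40 of the 42, against 43.4% of tested genes, and upwards by none, against 10.1%. Each of the 42 genes was lower in every LPS+EtOH library than in every LPS library, a separation that 65.3% of tested genes showed. The median change of the set was -2.38, against -0.82 over all tested genes, and only 6.19% of tested genes had a change below the set's median. Of the 42 genes, 38 lay in the lowest 25% of all changes and 32 in the lowest 10%. When the libraries were scaled so that the typical gene did not change (median-ratio scaling, which moved the median of all tested genes to -0.01), 39 of the 42 were called lower, with a median of -1.38, against 40.1% of tested genes. Under that scaling Max and Mnt were called higher, as were 39.9% of tested genes, and Nop10 was not called.

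With CPZ added to LPS, the same machinery was lower by a smaller margin. Summed over the set, the LPS+CPZ libraries held 370, 440 and 445 FPKM, against 1001, 1587 and 1211 FPKM in LPS. Of the 42 genes 40 were called lower, against 48.4% of tested genes called lower and 20.7% called higher, and Max and Mnt were not called. A log2 change of at least 1 was passed downwards by 35 of 42, against 17.2% of tested genes, and upwards by none, against 9.74%. The same 40 genes were lower in every LPS+CPZ library than in every LPS library, as were 50.7% of tested genes. The median change was -1.41, against -0.33 over all tested genes, and 8.01% of tested genes had a change below it. The lowest 25% of all changes held 38 of the genes and the lowest 10% held 27. Median-ratio scaling left 40 called lower, with a median of -1.06, against 32.5% of tested genes called lower, and none called higher, against 28.6%. Both of these comparisons use the same 3 LPS libraries, so their values are given side by side and not as independent measurements.

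**Figure D1:**
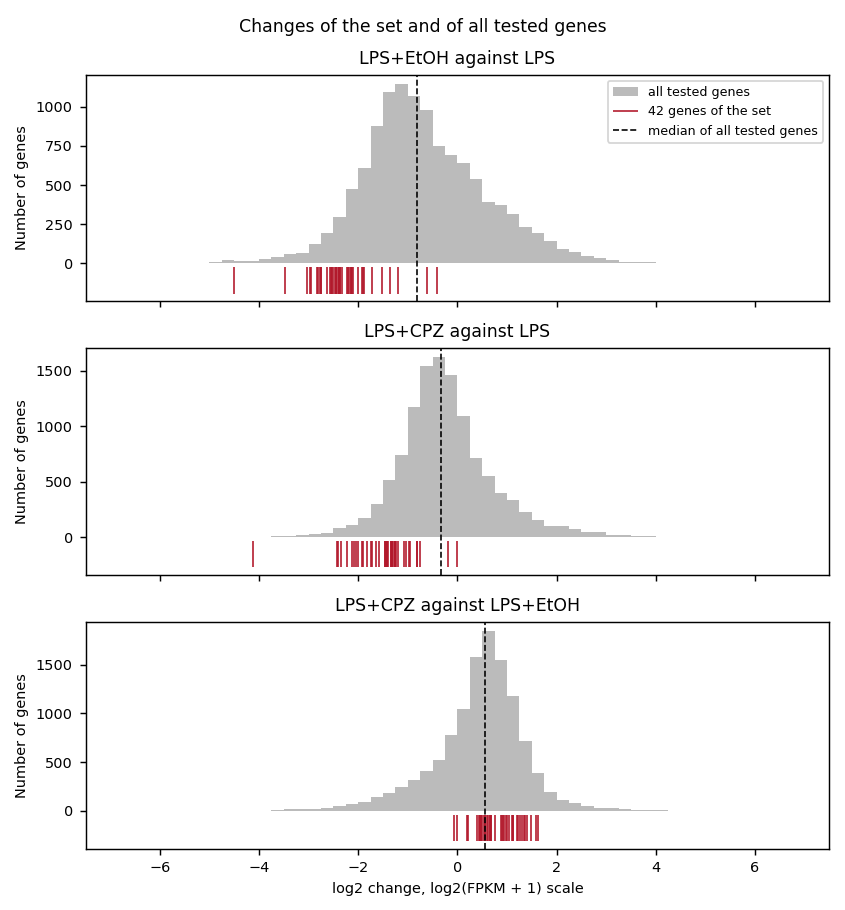
Histograms of the log2 change, on the log2(FPKM + 1) scale, of the 11721 tested genes in each comparison, with 1 red line below the axis for each of the 42 genes and a dashed line at the median of all tested genes. In LPS+EtOH against LPS and in LPS+CPZ against LPS, 40 of the 42 lines lie left of the dashed line, whereas in LPS+CPZ against LPS+EtOH 14 of 42 do.

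**Figure D2:**
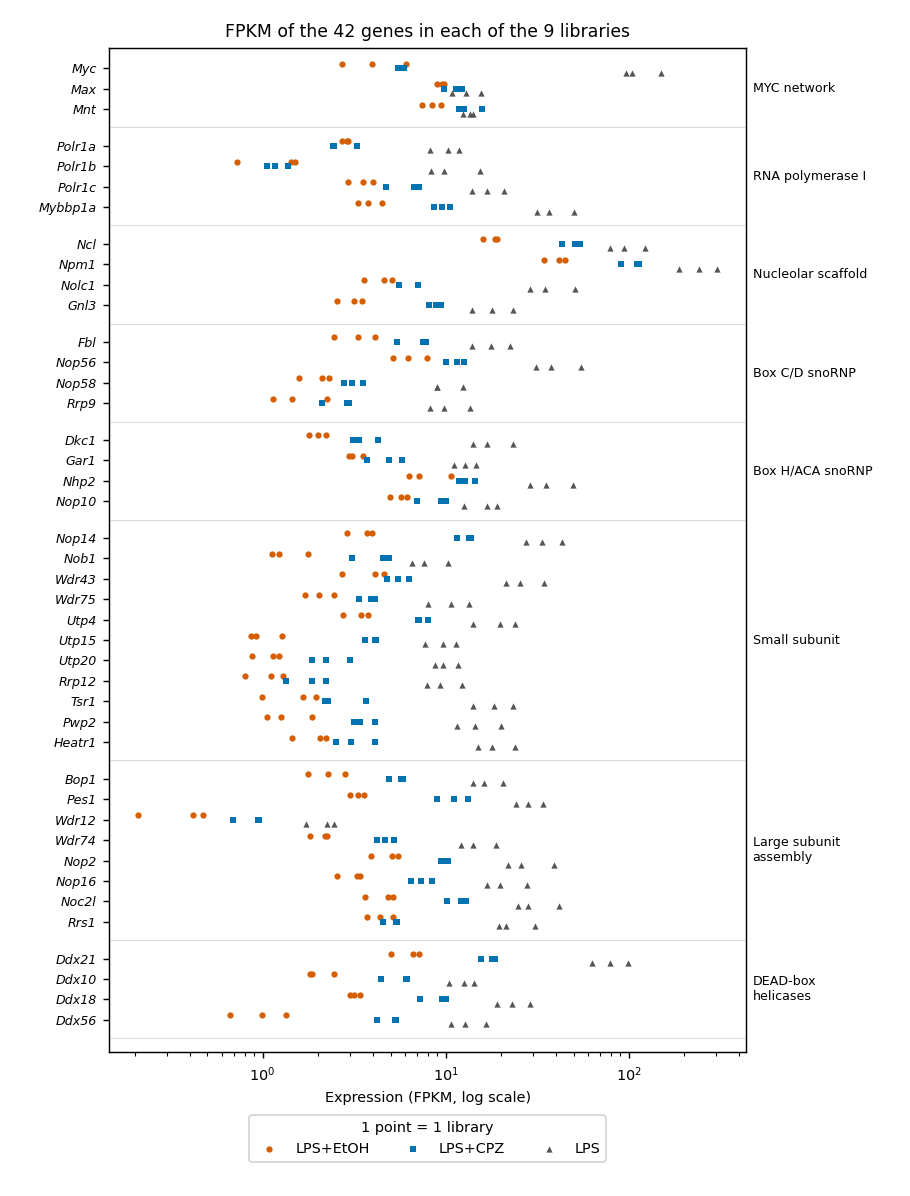
FPKM of each of the 42 genes in each of the 9 libraries on a log axis, grouped by role, with 1 point for each library. For 40 of the 42 genes the LPS points lie to the right of all LPS+EtOH and LPS+CPZ points, and Max and Mnt are the exceptions.

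Within each group the lowest library was the same one for most of the set. LPS replicate 1 was the lowest of the 3 LPS libraries for all 42 genes and LPS replicate 2 the highest for 41. LPS+EtOH replicate 3 was the lowest of its group for 38 genes, and LPS+CPZ replicate 1 was the lowest of its group for 36. The highest library was less uniform in the treated groups, LPS+EtOH replicate 2 for 27 genes and replicate 1 for 14, and LPS+CPZ replicate 2 for 25 and replicate 3 for 15. The deviations of the 42 genes within a group are therefore not independent of each other. The same counts were not made over all tested genes, so this order cannot be read as particular to the set.

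Myc, the transcription factor itself, showed the largest drop of the set in both comparisons against LPS. Its level was 3.97, 6.10 and 2.73 FPKM in LPS+EtOH and 5.57, 5.95 and 5.49 FPKM in LPS+CPZ, against 96.1, 150.5 and 104.5 FPKM in LPS. All 6 libraries with ethanol or CPZ lay far below the 3 LPS libraries, and the 2 treated groups overlapped each other. The log2 change was -4.51 ± 0.23 (SE, adjusted p = 6.49e-08) in LPS+EtOH and -4.12 ± 0.23 (adjusted p = 2.47e-07) in LPS+CPZ, which left 3.65% of the LPS mean with ethanol and 4.85% with CPZ. By level Myc ranked 13 of the 42 genes in LPS+EtOH and 21 in LPS+CPZ, against 2 in LPS, where only Npm1 was higher. Under median-ratio scaling the drop was -3.43 in LPS+EtOH and -3.73 in LPS+CPZ.

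Max, the obligate partner of MYC, moved little. It had 9.59, 8.97 and 9.76 FPKM in LPS+EtOH and 11.4, 9.82 and 12.3 FPKM in LPS+CPZ, against 10.8, 12.9 and 15.6 FPKM in LPS. The LPS+EtOH libraries lay just below the LPS libraries, and the LPS+CPZ libraries overlapped them. Max was called lower in LPS+EtOH at -0.42 ± 0.14 (adjusted p = 0.0164), was not called without LPS replicate 3 (-0.29, adjusted p = 0.0757), and was called higher under median-ratio scaling (0.68). In LPS+CPZ its change was -0.20 ± 0.14 (adjusted p = 0.219), and with the globin genes left out of the totals it was called lower (-0.55, adjusted p = 0.00559).

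Mnt, a repressor that pairs with MAX, had 9.42, 7.41 and 8.42 FPKM in LPS+EtOH and 15.9, 11.9 and 12.6 FPKM in LPS+CPZ, against 12.4, 14.2 and 13.6 FPKM in LPS. It was called lower in LPS+EtOH at -0.62 ± 0.13 (adjusted p = 0.00138) and higher there under median-ratio scaling (0.47). The LPS+CPZ libraries lay on both sides of the LPS libraries, with a change of -0.00 ± 0.13 (adjusted p = 0.984).

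Of the 13 other MYC network genes looked up, 10 were tested. In LPS+EtOH 7 were called lower and 1 higher, and in LPS+CPZ 5 were called lower and 3 higher (6 and 3, and 5 and 3, under median-ratio scaling). These counts of 10 were near the background, which was 64.6% lower and 19.0% higher in LPS+EtOH and 48.4% lower and 20.7% higher in LPS+CPZ, so they are not a result about the network. The gene that rose in LPS+EtOH was Mxd1, whose protein competes with MYC for MAX. Mxd1 had 416, 514 and 413 FPKM in LPS+EtOH and 67.1, 72.7 and 45.0 FPKM in LPS+CPZ, against 172, 127 and 112 FPKM in LPS. No library of any of the 3 groups overlapped with another group, and the order ran from LPS+CPZ through LPS to LPS+EtOH. Its change was 1.72 in LPS+EtOH (adjusted p = 1.86e-05) and -1.15 in LPS+CPZ (adjusted p = 0.000668), and both kept their direction under median-ratio scaling (2.90 and -0.79). Of the 9 neutrophil markers tested, 8 were also highest in LPS+EtOH, whereas Ly6g was highest in LPS+CPZ, with 156 ± 12.3 FPKM in LPS+EtOH and 274 ± 31.1 FPKM in LPS+CPZ, against 16.9 ± 4.79 FPKM in LPS. The part of neutrophil RNA in the Mxd1 level was not tested. Mxi1 (0.83), Mlx (0.64) and Ruvbl2 (0.78), a chromatin remodelling ATPase that binds MYC, were called higher in LPS+CPZ, and the calls on Mxi1 and Mlx were lost with the globin genes left out (0.52, adjusted p = 0.0913, and 0.31, adjusted p = 0.130). The call on Mxi1 was also lost without LPS replicate 2 (0.58, adjusted p = 0.0531) and with no filter (adjusted p = 0.0539). Ruvbl1, the partner of Ruvbl2, and Trrap, a MYC cofactor, were called lower in LPS+EtOH (-2.18 and -2.16), and Mlxip, a partner of MLX, was called lower in LPS+CPZ (-1.26). In LPS+CPZ against LPS+EtOH 7 of the 10 were called higher, near the 61.4% of all tested genes, and Mxd1 lower (-2.86), with Ruvbl2 at 18.6 ± 1.24 FPKM in LPS+CPZ and 2.08 ± 0.316 FPKM in LPS+EtOH (2.67), and median-ratio scaling called 5 higher and 2 lower.

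**Figure D3:**
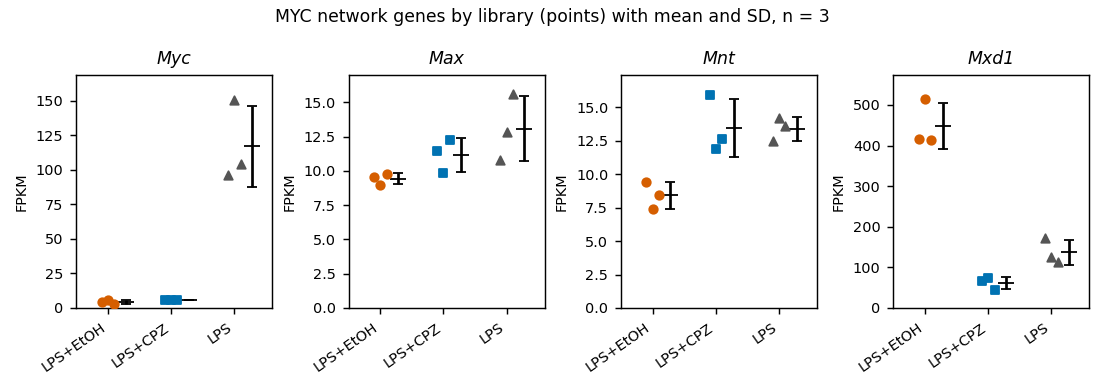
FPKM of Myc, Max, Mnt and Mxd1 in each library (points) with the group mean and SD (n = 3) to the right of the points, in LPS+EtOH, LPS+CPZ and LPS. Myc stood at 4.27 ± 1.71 and 5.67 ± 0.246 FPKM in the 2 treated groups, against 117 ± 29.3 FPKM in LPS, while Mxd1 averaged 448 ± 57.2 FPKM in LPS+EtOH and 61.6 ± 14.7 FPKM in LPS+CPZ, against 137 ± 31.3 FPKM in LPS.

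Dimers of MYC and MAX bind the palindrome CACGTG, known as the canonical E-box, and the promoters of the set were searched for it. RefSeq promoter sequences (GRCm38.p6, 250 bases before to 50 after the gene start) matched 36 of the 42 symbols, all but Bop1, Fbl, Myc, Npm1, Rrp12 and Rrs1. The motif, which reads the same on both strands, occurred in 9 of these 36 (25.0%), against 970 of the 7781 tested genes with a promoter sequence (12.5%) and 2187 of all 27025 promoters (8.09%). In 7 of the 9 its first base lay at -10 or later, counted from the start, in a window chosen after the positions were seen, which holds for 19.4% of the 36 promoters, against 3.03% of tested genes and 1.74% of all promoters. The shares are a description and no binding was measured. The 9 stretches around the motif are shown because the genes that carry it range from the least changed of the set (Max and Mnt) to strongly changed ones (Mybbp1a, Tsr1 and Pes1). Each is printed on the gene's own strand with the motif in capitals, and is cut where the promoter sequence ends.
Max, chr12:76962234-76962263, minus strand: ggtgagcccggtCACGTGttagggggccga
Mnt, chr11:74830789-74830818, plus strand: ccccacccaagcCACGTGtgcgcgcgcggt
Mybbp1a, chr11:72441355-72441376, plus strand: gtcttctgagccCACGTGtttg
Nop2, chr6:125131811-125131840, plus strand: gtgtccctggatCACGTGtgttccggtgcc
Pes1, chr11:3963965-3963994, plus strand: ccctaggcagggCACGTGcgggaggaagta
Tsr1, chr11:74898092-74898121, plus strand: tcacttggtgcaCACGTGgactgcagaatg
Utp20, chr10:88826765-88826789, minus strand: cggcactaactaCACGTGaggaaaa
Utp4, chr8:106893643-106893672, plus strand: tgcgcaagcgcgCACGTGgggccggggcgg
Wdr43, chr17:71616220-71616249, plus strand: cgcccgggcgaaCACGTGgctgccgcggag
The first base of the motif lay at -3 in Max, 3 in Pes1, 16 in Utp4, 18 in Wdr43, 25 in Tsr1, 38 in Utp20 and 41 in Mybbp1a, and further upstream in Nop2 (-60) and Mnt (-123). Across these 9 genes the change in LPS+EtOH ran from -0.42 in Max to -3.04 in Mybbp1a.

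The RNA polymerase I genes fell in both treated groups. Polr1a, which encodes the largest subunit, had 2.91, 2.92 and 2.73 FPKM in LPS+EtOH and 2.43, 3.27 and 2.47 FPKM in LPS+CPZ, against 8.23, 11.9 and 10.3 FPKM in LPS. Polr1b, for the other subunit of the catalytic core, had 1.51, 1.44 and 0.727 FPKM in LPS+EtOH and 1.17, 1.37 and 1.05 FPKM in LPS+CPZ, against 8.36, 15.5 and 9.85 FPKM in LPS. For both genes the 2 treated groups overlapped each other and lay below every LPS library, with changes of -1.52 for Polr1a and -2.44 for Polr1b in LPS+EtOH, and of -1.58 and -2.43 in LPS+CPZ. Polr1c, a subunit shared with RNA polymerase III, averaged 3.49 ± 0.540 FPKM in LPS+EtOH and 6.20 ± 1.29 FPKM in LPS+CPZ, against 17.1 ± 3.46 FPKM in LPS. Mybbp1a, a nucleolar coregulator of transcription, was reduced more with ethanol (-3.04 ± 0.17, adjusted p = 9.98e-08) than with CPZ (-1.91 ± 0.17, adjusted p = 5.06e-06).

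Nucleolar scaffold and chaperone genes fell in both treated groups, and 3 of the 4 kept more of their level with CPZ under both scalings. Npm1 (nucleophosmin), the most abundant transcript of the set in all 3 groups, had 41.4, 44.7 and 34.2 FPKM in LPS+EtOH and 90.8, 111 and 114 FPKM in LPS+CPZ, against 187, 304 and 241 FPKM in LPS. Ncl (nucleolin), a major RNA-binding protein of the nucleolus, had 18.7, 19.1 and 15.9 FPKM in LPS+EtOH and 43.2, 50.6 and 53.9 FPKM in LPS+CPZ, against 79.2, 123 and 93.9 FPKM in LPS. In both genes, as in most of the set, the 3 groups were fully separated, with LPS+CPZ between LPS+EtOH and LPS. How many of all tested genes show this order was not counted, so it cannot be read as particular to the set. Gnl3 (nucleostemin, a nucleolar GTPase) followed Npm1 and Ncl, with 16.6% of the LPS mean in LPS+EtOH and 47.6% in LPS+CPZ. Nolc1, a chaperone of snoRNPs, differed from these 3 in keeping only 17.2% of the LPS mean in LPS+CPZ, and it kept 11.6% in LPS+EtOH. The log2 changes of the 4 genes ran from -2.82 to -2.23 in LPS+EtOH and from -2.34 to -0.96 in LPS+CPZ.

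All 4 box C/D and all 4 box H/ACA genes were called lower in both groups. Lower calls were also made for 64.6% of tested genes with ethanol and for 48.4% with CPZ, so counts of 4 carry little weight. Among box C/D genes, the methyltransferase gene Fbl (fibrillarin) averaged 3.30 ± 0.837 FPKM in LPS+EtOH and 6.92 ± 1.28 FPKM in LPS+CPZ, against 18.0 ± 4.20 FPKM in LPS. The core protein genes Nop56 and Nop58 kept 15.6% and 19.8% of the LPS mean with ethanol, and 27.6% and 31.0% with CPZ. Rrp9, whose protein belongs to the snoRNP that initiates cleavage of the precursor, kept 15.4% with ethanol and 25.2% with CPZ. Among box H/ACA genes, Dkc1 (dyskerin, the pseudouridine synthase) fell most, to 11.1% of the LPS mean in LPS+EtOH and 19.8% in LPS+CPZ. Its partners kept more, Gar1 24.7%, Nhp2 21.2% and Nop10 34.7% with ethanol, and 37.3%, 34.4% and 54.4% with CPZ. Nop10 had the highest remaining share of the 39 genes outside the MYC network in both treated groups, and its change of -1.36 in LPS+EtOH was reduced to -0.29 (adjusted p = 0.0958) under median-ratio scaling.

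The 11 genes of small subunit processing fell to between 8.23 and 19.3% of the LPS mean in LPS+EtOH and to between 14.5 and 51.5% in LPS+CPZ. Tsr1, needed late in small subunit maturation, had 1.95, 1.65 and 0.994 FPKM in LPS+EtOH and 2.19, 3.65 and 2.28 FPKM in LPS+CPZ, against 14.2, 23.3 and 18.4 FPKM in LPS, the lowest remaining share of the 11 in both groups. Heatr1, Wdr43, Wdr75, Utp4 and Utp15 belong to the subcomplex that joins the nascent precursor first. Their changes in LPS+EtOH were -2.76, -2.53, -1.91, -2.21 and -2.38, and in LPS+CPZ they were -2.23, -2.08, -1.27, -1.24 and -1.08. As shares of the LPS mean, Heatr1 kept 10.1%, Utp15 10.6%, Wdr43 14.2%, Utp4 17.3% and Wdr75 19.3% in LPS+EtOH, so the order of Utp15 and Wdr43 depended on the scale. Utp15 had the smallest log2 change of the 5 in LPS+CPZ, and the differences between neighbouring genes were not tested. Pwp2, of another processome subcomplex, changed by -2.75 in LPS+EtOH and by -1.82 in LPS+CPZ. The processome scaffold gene Utp20 and Rrp12, whose protein takes part in export of the subunits, changed by -2.40 and -2.37 in LPS+EtOH and by -1.72 and -1.93 in LPS+CPZ.

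Nop14, Utp15 and Nob1 were the small subunit genes with the widest gap between CPZ and ethanol. Nop14, a processome component, had 3.71, 3.94 and 2.91 FPKM in LPS+EtOH and 11.6, 13.3 and 13.7 FPKM in LPS+CPZ, against 27.4, 43.3 and 33.8 FPKM in LPS. Nob1, the endonuclease that makes the last cut of the small subunit RNA, had 1.24, 1.77 and 1.13 FPKM in LPS+EtOH and 3.07, 4.57 and 4.93 FPKM in LPS+CPZ, against 6.53, 10.3 and 7.58 FPKM in LPS. Nop14, Utp15 and Nob1 each showed 3 separate groups with LPS+CPZ in the middle, as did most of the set. This order was not counted over all tested genes.

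The 8 genes of large subunit assembly kept between 11.4 and 18.5% of the LPS mean in LPS+EtOH and between 21.5 and 40.3% in LPS+CPZ. Pes1 and Bop1 encode partners in one complex of large subunit assembly. Pes1 had 3.56, 3.34 and 2.99 FPKM in LPS+EtOH and 8.97, 11.0 and 13.2 FPKM in LPS+CPZ, against 24.1, 34.2 and 28.2 FPKM in LPS. Bop1 averaged 2.29 ± 0.515 FPKM in LPS+EtOH and 5.48 ± 0.481 FPKM in LPS+CPZ, against 17.0 ± 3.29 FPKM in LPS. The third partner, Wdr12, was the weakest transcript of the set, with 0.474, 0.419 and 0.209 FPKM in LPS+EtOH and 0.691, 0.960 and 0.944 FPKM in LPS+CPZ, against 1.72, 2.47 and 2.25 FPKM in LPS. Pes1 and Bop1 were lower in every treated library than in every LPS library. This separation was shown by 65.3% of tested genes in LPS+EtOH and 50.7% in LPS+CPZ. Wdr12 was separated too, but its direction was fixed by the filter. The assembly factor gene Rrs1 gave overlapping values in the 2 treated groups, with 4.37, 5.13 and 3.71 FPKM in LPS+EtOH and 4.57, 5.42 and 5.38 FPKM in LPS+CPZ, against 19.6, 30.7 and 21.2 FPKM in LPS. The ribosomal RNA methyltransferase gene Nop2 and the assembly factor genes Nop16, Noc2l and Wdr74 changed by -2.33, -2.44, -2.53 and -2.36 in LPS+EtOH and by -1.43, -1.40, -1.32 and -1.47 in LPS+CPZ.

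The 4 DEAD-box RNA helicase genes, whose proteins unwind RNA during assembly, were called lower in both groups. The share of all tested genes called lower was 64.6% in LPS+EtOH and 48.4% in LPS+CPZ. Ddx21 had 6.60, 7.18 and 5.03 FPKM in LPS+EtOH and 15.6, 18.7 and 17.8 FPKM in LPS+CPZ, against 63.3, 98.5 and 79.3 FPKM in LPS. Its change of -3.47 ± 0.17 in LPS+EtOH (adjusted p = 6.23e-08) was the largest of the set after Myc, and in LPS+CPZ it was -2.13 ± 0.17 (adjusted p = 3.06e-06). Ddx56 had 1.33, 0.995 and 0.665 FPKM in LPS+EtOH and 4.22, 5.35 and 5.26 FPKM in LPS+CPZ, against 10.6, 16.7 and 12.7 FPKM in LPS. With ethanol it kept 7.48% of the LPS mean, the lowest share outside Myc, whereas with CPZ it kept 37.1%. Ddx18 kept 13.5% in LPS+EtOH and 37.6% in LPS+CPZ, and Ddx10 kept 16.4% and 44.4%.

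Outside Myc, Max and Mnt, the share of the LPS mean that remained was 7.48 to 34.7% over 39 genes in LPS+EtOH, with a median of 14.4%, and 10.7 to 54.4% in LPS+CPZ, with a median of 34.4%. By role, the median share in LPS+EtOH was 10.7% for the helicases, 10.8% for small subunit genes, 14.4% for large subunit genes, 15.6% for RNA polymerase I genes, 16.5% for scaffold genes, 16.9% for box C/D genes and 22.9% for box H/ACA genes. In LPS+CPZ the order was another one, with 23.6% for small subunit genes, 25.6% for RNA polymerase I genes, 29.3% for box C/D genes, 34.2% for large subunit genes, 35.8% for box H/ACA genes, 37.4% for the helicases and 45.4% for scaffold genes. Differences between roles were not tested. All these shares are of FPKM as deposited and depend on that scale. As deposited, the median log2 change of the 39 genes was -2.38 in LPS+EtOH and -1.42 in LPS+CPZ. Under median-ratio scaling it was -1.39 and -1.07, so the gap between the treated groups was narrower. Over all tested genes the deposited medians were -0.82 and -0.33.

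**Figure D4:**
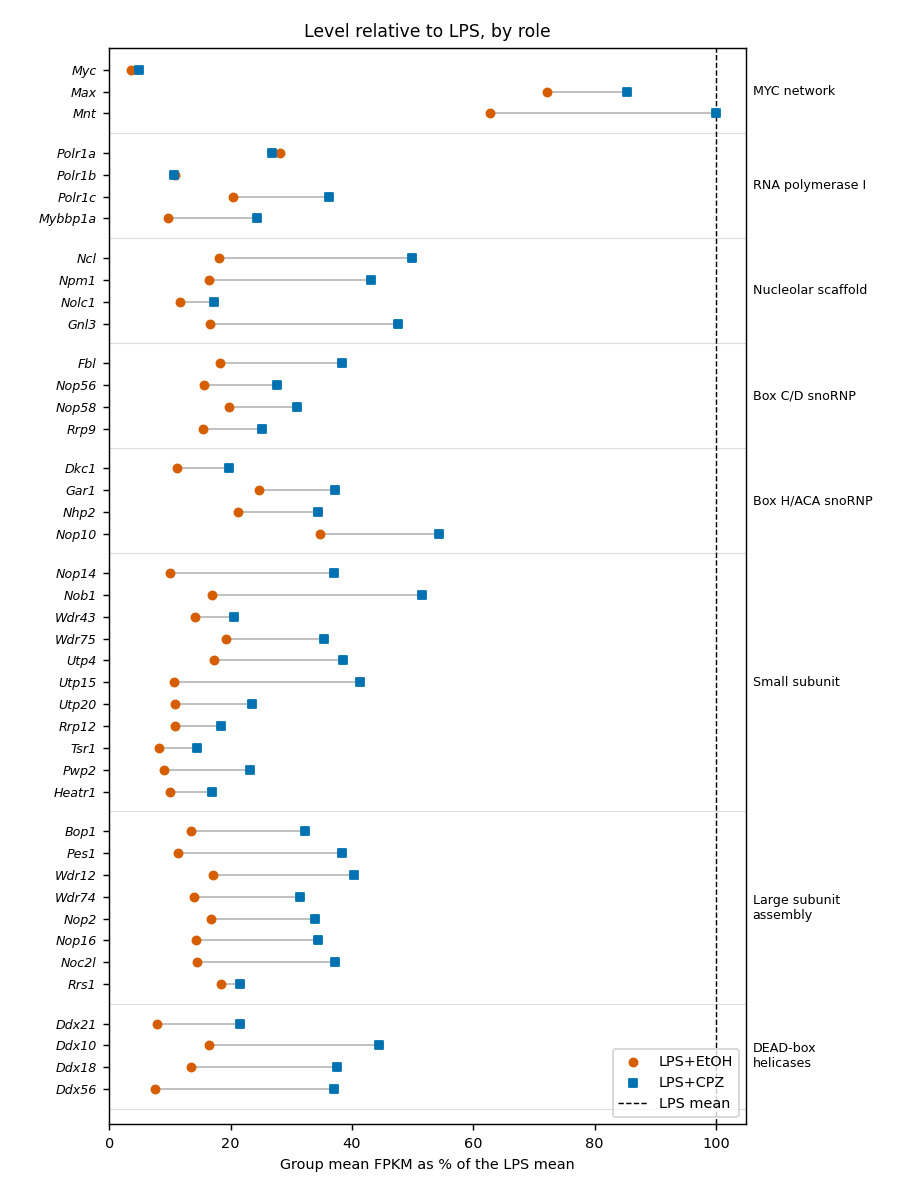
Group mean FPKM of each gene as a percentage of its mean in LPS, for LPS+EtOH (circles) and LPS+CPZ (squares), joined by a grey line and grouped by role, with the LPS mean as a dashed line at 100%. Polr1a is the gene with its circle visibly to the right of its square (28.1% and 26.8%), and for Polr1b the 2 symbols coincide (10.9% and 10.7%). FPKM are as deposited, without median-ratio scaling.

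Set directly against ethanol, CPZ left most of the set higher on the deposited scale, with a median near that of genes in general, and under median-ratio scaling most of the set was not called. Of the 42 genes 36 were called higher and 0 lower in LPS+CPZ against LPS+EtOH, whereas 61.4% of all tested genes were called higher and 15.2% lower. A log2 change of at least 1 was passed upwards by 14 of 42, against 24.0% of tested genes, and downwards by none, against 7.24%, and 37 of the 42 were higher in every LPS+CPZ library than in every LPS+EtOH library, against 62.9%. The median change was 0.71, against 0.55 over all tested genes, and 60.4% of tested genes had a change below the set's median. Under median-ratio scaling, which moved the median of all tested genes to 0.04, 13 genes were called higher, against 33.9% of tested genes, and 3 were called lower, against 33.0%, with a median of 0.17. The number called higher ranged from 28, without LPS+EtOH replicate 3, to 37 when 1 library was left out.

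The 13 genes called higher under both scalings were Mybbp1a, Ncl, Npm1, Gnl3, Nop14, Nob1, Utp15, Pes1, Noc2l and the 4 helicase genes. Their number was near the 33.9% of tested genes called higher under median-ratio scaling, so it is not a result about the set. Nop14 averaged 12.9 ± 1.16 FPKM in LPS+CPZ and 3.52 ± 0.541 FPKM in LPS+EtOH, a change of 1.62 ± 0.17 (adjusted p = 1.22e-05) as deposited and of 0.93 after scaling. Ddx56 averaged 4.94 ± 0.630 FPKM in LPS+CPZ and 0.998 ± 0.335 FPKM in LPS+EtOH, a change of 1.58 ± 0.18 (adjusted p = 2.16e-05) as deposited and of 1.08 after scaling. Pes1 (1.48), Ncl (1.41), Npm1 (1.37), Ddx21 (1.35), Utp15 (1.30), Gnl3 (1.27), Ddx18 (1.23), Noc2l (1.20), Mybbp1a (1.13), Nob1 (1.12) and Ddx10 (1.10) followed. All 13 showed LPS+CPZ libraries above every LPS+EtOH library, as did most of the set and 62.9% of tested genes.

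The 6 genes not called were Myc, Max, Polr1a, Polr1b, Wdr43 and Rrs1. Myc differed by 0.39 ± 0.23 (adjusted p = 0.139), was called higher without LPS+EtOH replicate 2 (0.63, adjusted p = 0.0187), and had a change of -0.30 under median-ratio scaling. Polr1a differed by -0.06 ± 0.14 (adjusted p = 0.731) and Polr1b by 0.00 ± 0.21 (adjusted p = 0.999), and their changes under median-ratio scaling were -0.69, which was called lower, and -0.48. Max (0.22 ± 0.14, adjusted p = 0.177) and Rrs1 (0.19 ± 0.17, adjusted p = 0.336) were called lower under median-ratio scaling, at -0.55 and -0.51. Wdr43 had 4.81, 6.28 and 5.52 FPKM in LPS+CPZ, all above the 4.13, 4.62 and 2.73 FPKM in LPS+EtOH, with a change of 0.45 ± 0.20 (adjusted p = 0.0564). It was near the threshold, being called higher under 7 of the alternatives (adjusted p = 0.0239 to 0.0462), and its change was -0.23 (adjusted p = 0.319) under median-ratio scaling. Mnt was called higher as deposited (0.61 ± 0.13, adjusted p = 0.00182) and had a change of -0.15 under median-ratio scaling.

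The remaining 22 genes called higher, none of them called under median-ratio scaling, had smaller changes. Among snoRNP genes these ran from 0.46 for Gar1 to 0.88 for Fbl, and scaling turned Nop58, Rrp9, Dkc1, Gar1, Nhp2 and Nop10 to between -0.21 and -0.00. Nop16 (1.04), Bop1 (0.99), Utp4 (0.97), Pwp2 (0.94), Nop2 (0.91) and Wdr74 (0.89) had the larger values among the processing and assembly genes, and stayed above 0 after scaling. The calls on Nolc1, Nop58, Rrp9, Gar1, Nhp2, Rrp12, Tsr1 and Heatr1 depended on single libraries. Without LPS+EtOH replicate 3 all 8 were lost (0.34 for Rrp12 to 0.52 for Nhp2), 7 were lost without LPS+CPZ replicate 2 (0.33 for Rrp12 to 0.43 for Nolc1 and Rrp9), and 6 were lost without LPS+CPZ replicate 3 (0.41 for Rrp12 to 0.58 for Nhp2). Of the 8, 5 were lost without LPS+EtOH replicate 1 (0.44 for Gar1 to 0.60 for Nhp2), 3 were lost without LPS replicate 3 (Rrp12, Nolc1 and Rrp9, adjusted p = 0.0513 to 0.0534), and without LPS+EtOH replicate 2 the call on Tsr1 was lost (0.59, adjusted p = 0.0616).

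**Figure D5:**
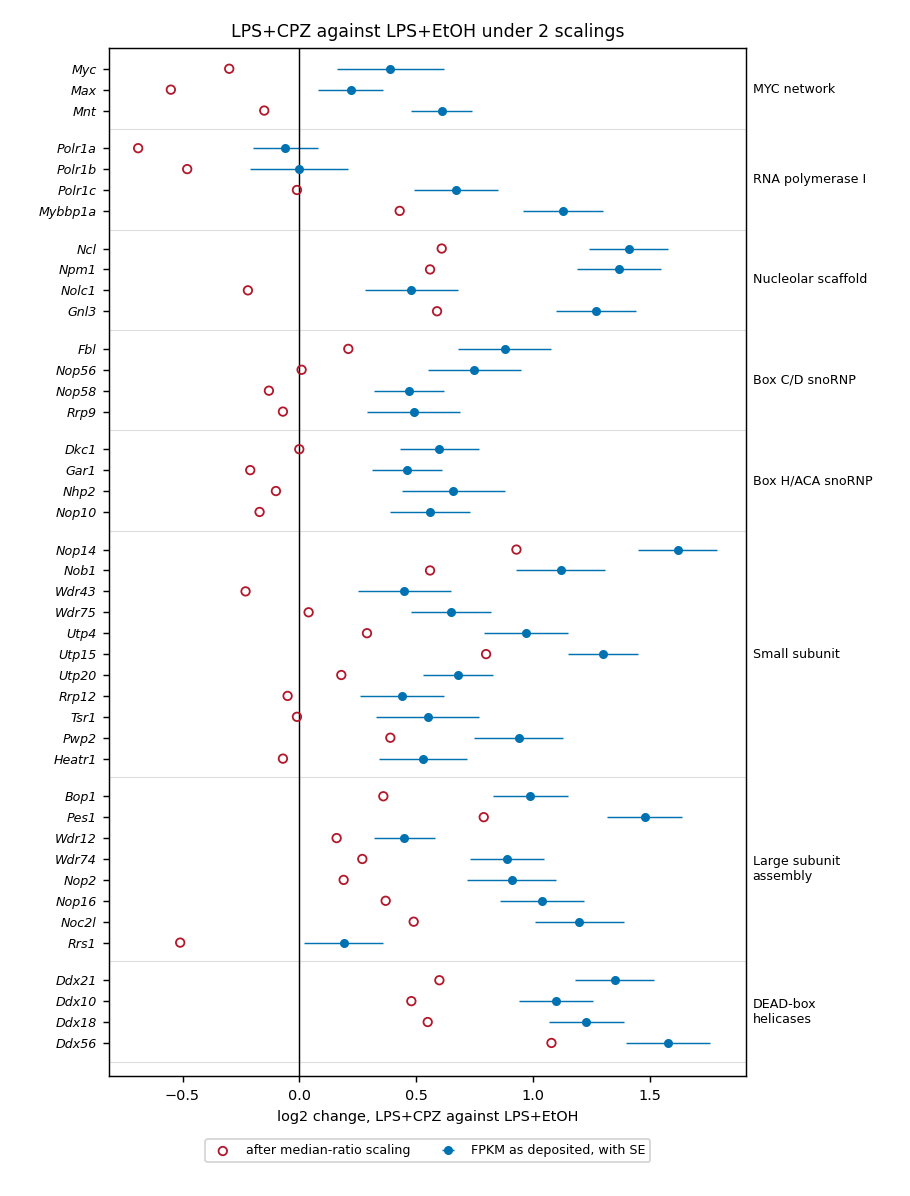
Log2 change of each gene in LPS+CPZ against LPS+EtOH on the log2(FPKM + 1) scale, as deposited with its standard error (filled circles) and after median-ratio scaling (open circles), with a line at 0. As deposited 36 of 42 genes were called higher, and after scaling 13 were called higher and Max, Polr1a and Rrs1 lower.

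Other genes of the same machinery were looked up from lists of 190 symbols, of which 181 were found, and their counts read against the shares of all tested genes given above. Among them Rrp1b (large subunit), Znhit3 (snoRNP assembly), Polr3g (RNA polymerase III) and Bcat1 (growth genes) passed the filter through the 3 LPS libraries alone, so their direction against LPS was fixed by it, and their lower calls in the counts below carry no support. In LPS+EtOH against LPS, all 17 other RNA polymerase I genes were called lower, as were all 40 other small subunit genes, all 40 other large subunit genes, all 8 tested snoRNP assembly genes and all 15 genes of the RNA exosome and rRNA trimming. The median changes of these lists were -1.21, -1.93, -2.17, -1.60 and -1.70, against -0.82 over all tested genes. Under median-ratio scaling 9, 33, 38, 7 and 14 of them were called lower, and 1, 4, 0, 1 and 0 higher. Tcof1 (treacle), which recruits RNA polymerase I factors, averaged 2.06 ± 0.173 FPKM in LPS+EtOH and 37.2 ± 5.95 FPKM in LPS, a change of -3.63. Rrn3, the factor that brings RNA polymerase I to its promoter, averaged 0.945 ± 0.195 FPKM in LPS+EtOH and 12.3 ± 1.46 FPKM in LPS (-2.77). Large drops were also seen in Xrn2, a ribosomal RNA exonuclease gene (-2.98), in the large subunit genes Mak16 (-2.94) and Mdn1 (-2.81), in the small subunit genes Rcl1 (-2.56) and Imp3 (-2.54), in Exosc10 (-2.54), the nuclear exosome nuclease gene, in Twistnb (-2.39), an RNA polymerase I subunit gene, and in Snu13 (-2.34), a box C/D core protein gene.

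In LPS+CPZ against LPS, 12 of the 17 other RNA polymerase I genes were called lower, and 32 of 40 small subunit, 38 of 40 large subunit, 7 of 8 snoRNP assembly and 14 of 15 exosome genes, with none called higher. The median changes were -0.60, -0.96, -1.30, -1.01 and -0.93, against -0.33 over all tested genes. Median-ratio scaling left 7, 26, 35, 6 and 11 of them lower and put 1, 4, 0, 0 and 0 higher. Ppan and Mdn1 led the large subunit list (-2.07 and -2.00), Rcl1 and Bysl the small subunit list (-2.06 and -1.77), Dis3 (-1.56) and Xrn2 (-1.40) the exosome list, and Tcof1 changed by -1.84. Rrn3 and Twistnb changed by -1.40 each. Among genes not called, Mphosph10 of the small subunit processome stood at 18.7 ± 2.15 FPKM in LPS+CPZ and 16.4 ± 3.67 FPKM in LPS, and Taf1a of the RNA polymerase I selectivity factor at 6.30 ± 0.285 FPKM in LPS+CPZ and 5.62 ± 0.841 FPKM in LPS (0.20 and 0.15, adjusted p = 0.285 for both), and median-ratio scaling called both higher (0.53, adjusted p = 0.0138, and 0.44, adjusted p = 0.0064).

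Against ethanol, 13 of 17 RNA polymerase I, 38 of 40 small subunit, 37 of 40 large subunit, 8 of 8 snoRNP assembly and 15 of 15 exosome genes were called higher in LPS+CPZ and none lower, and under median-ratio scaling 4, 21, 19, 3 and 6 were called higher and 3, 1, 1, 0 and 0 lower. Mphosph10 had the largest change of them, at 18.7 ± 2.15 FPKM in LPS+CPZ and 3.17 ± 0.214 FPKM in LPS+EtOH (2.23, adjusted p = 1.31e-06). Tcof1 (1.79), Nsa2 of large subunit assembly (1.64), Xrn2 (1.58) and Taf1a of RNA polymerase I (1.52) had the largest changes of the other 4 lists. Of all tested genes 61.4% were called higher and 15.2% lower as deposited, and 33.9% and 33.0% under median-ratio scaling.

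RNA polymerase III, which makes transfer RNA and the shortest ribosomal RNA, shares subunits with RNA polymerase I. In LPS+EtOH against LPS, 18 of its 21 genes were called lower and 1 higher, and in LPS+CPZ against LPS 15 were called lower and 0 higher (14 lower and 5 higher with ethanol, and 13 lower and 1 higher with CPZ, under median-ratio scaling). Of all tested genes, 64.6% were lower and 19.0% higher with ethanol, and 48.4% lower and 20.7% higher with CPZ. Under median-ratio scaling these shares were 40.1% and 39.9% with ethanol, and 32.5% and 28.6% with CPZ. Polr3d averaged 0.607 ± 0.218 FPKM in LPS+EtOH and 2.81 ± 0.305 FPKM in LPS+CPZ, against 11.3 ± 2.82 FPKM in LPS. The gene against the trend was Brf2, an initiation factor gene, with 4.16 ± 0.516 FPKM in LPS+EtOH and 2.02 ± 0.150 FPKM in LPS+CPZ, against 1.93 ± 0.130 FPKM in LPS (0.81, adjusted p = 4.31e-05, in LPS+EtOH). In LPS+CPZ against LPS+EtOH, 16 of the 21 were called higher and Brf2 was called lower (11 higher and 4 lower under median-ratio scaling). The shares of all tested genes there were 61.4% higher and 15.2% lower (33.9% and 33.0% under median-ratio scaling).

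Growth genes outside the nucleolus that are commonly listed as MYC targets were less uniform. Of 26 tested, 21 were called lower and 2 higher in LPS+EtOH against LPS, and 18 were called lower and 5 higher in LPS+CPZ against LPS, with medians of -1.89 and -0.78 (17 lower and 7 higher, and 13 lower and 5 higher, under median-ratio scaling). Slc7a5, a transporter of large neutral amino acids, averaged 2.19 ± 0.391 FPKM in LPS+EtOH and 19.2 ± 3.90 FPKM in LPS+CPZ, against 81.9 ± 17.1 FPKM in LPS. Ccnd2 (cyclin D2) averaged 4.77 ± 0.772 FPKM in LPS+EtOH and 4.27 ± 1.35 FPKM in LPS+CPZ, against 57.8 ± 15.4 FPKM in LPS, with changes of -3.32 and -3.47. Shmt2, the mitochondrial serine enzyme gene, changed by -4.13 in LPS+EtOH, and Srm (spermidine synthase) changed by -2.26 in LPS+CPZ.

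Some listed targets moved the other way. The numbers called higher against LPS, 2 and 5 of 26, did not exceed the 19.0% and 20.7% of all tested genes. They are therefore not a result about these targets. Nampt, for an enzyme of NAD synthesis, had 362 ± 58.0 FPKM in LPS+EtOH and 487 ± 37.2 FPKM in LPS+CPZ, against 165 ± 32.8 FPKM in LPS (1.14 and 1.58). Ldha (lactate dehydrogenase A) averaged 166 ± 28.3 FPKM in LPS+CPZ and 48.1 ± 6.35 FPKM in LPS (1.76, adjusted p = 3.75e-06), and the mitochondrial chaperonin gene Hspe1 averaged 46.5 ± 15.9 FPKM in LPS+CPZ and 16.8 ± 2.50 FPKM in LPS (1.36, adjusted p = 0.000956). Shmt1 was called higher in both groups (0.67 and 0.62) and Hk2 (hexokinase 2) in LPS+CPZ (0.62), and these 3 calls were lost with the globin genes left out (0.31, 0.30 and 0.27). The call on Hk2 was also lost without LPS replicate 1 (0.65), LPS replicate 3 (0.45), LPS+CPZ replicate 1 (0.53) or LPS+CPZ replicate 3 (0.63), with adjusted p = 0.0529 to 0.120, and with no filter (adjusted p = 0.0954). In LPS+CPZ against LPS+EtOH 18 of the 26 were called higher, near the 61.4% of all tested genes. Only Eif5a, a translation factor gene, was called lower, against 15.2% of tested genes. Eif5a averaged 37.7 ± 5.96 FPKM in LPS+CPZ and 98.8 ± 8.03 FPKM in LPS+EtOH. Under median-ratio scaling 15 of the 26 were called higher and 6 lower, against 33.9% and 33.0% of tested genes. Odc1 (ornithine decarboxylase) averaged 102 ± 15.9 FPKM in LPS+CPZ and 18.7 ± 1.66 FPKM in LPS+EtOH (2.37).

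Some of the 42 genes carry other transcripts within them. In GENCODE M21, 7 of the 42 (Dkc1, Gnl3, Ncl, Nop56, Nop58, Tsr1 and Wdr43) hold snoRNA genes on their own strand, 21 in all, which is 16.7% of the set, against 1.90% of 9536 tested protein-coding genes (181 genes). In 16 of the 42 an exon overlaps an exon of another gene, in 1 of these, Ncl, on the same strand. The libraries were strand-specific per the labels, and whether the quantification used strand is not given in the sources used here, so reads of overlapping partners could be included in those 16.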

How the data were processed

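RNA-seq of 9 libraries (3 for each of LPS+EtOH, LPS+CPZ and LPS) was used. Values are FPKM per gene, as deposited by the authors, and were not recounted. Per the submitters' processing notes, STAR, StringTie and FastQC 0.11.2 were run with the human build hg38 named, although the gene IDs are those of mouse (55154 of 55335 found in GENCODE M21). FPKM are not counts, so reads were not recovered and no depth or counting error is given. Low values, multiplied by transcript length, were compared with whole multiples of their most frequent value. Of them 22.2 to 24.2% came within 2% of a multiple, and the share expected without such steps was not computed.

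Genes that reached 1 FPKM in 3 or more libraries were compared as log2(FPKM + 1) with limma 3.58.1 in R 4.3.3 (group means, all 9 libraries, eBayes with trend, 6 residual degrees of freedom, two-sided). P-values were Benjamini-Hochberg adjusted over 11721 genes, with a threshold of 0.05. Changes on this scale understate those of weakly expressed genes. The procedure was checked on simulated data with a small part of the genes changed, in both directions, and noise independent between genes. That check does not cover a shift of most genes, or genes whose deviations move together. The 42 genes, the lists and the tests were chosen with earlier results of these data known. All 42 are named; of each other list, at most 3 genes for each comparison past the threshold, averaging 5 FPKM or more in the higher group, with the largest changes, plus those opposite to most of the list. Mphosph10 and Taf1a against LPS, and genes repeated from another comparison, were chosen after their values were seen. Promoters were RefSeq GRCm38.p6. Alternatives were pseudocounts of 0.1 and 5, no filter, a filter of 5 FPKM, median-ratio scaling, globin genes left out, the replicate block, only the groups compared, a log2 change of at least 1, and each library left out. Tables and plots used pandas 2.3.3, matplotlib 3.10.9 and numpy 2.4.6 in Python 3.11.15.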

Additional observations from a re-analysis of the deposited data

How the results depend on the processing

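Leaving out each of 9 libraries in turn, 40 to 42 genes of the set were called lower in LPS+EtOH against LPS, 39 to 40 in LPS+CPZ against LPS, and 28 to 37 higher in LPS+CPZ against LPS+EtOH. Median-ratio scaling called 2 genes of the set higher in LPS+EtOH against LPS (Max 0.68, Mnt 0.47), turned Max to 0.13 and Mnt to 0.33 in LPS+CPZ against LPS, and in LPS+CPZ against LPS+EtOH called 13 higher and 3 lower, turning Myc to -0.30, Max to -0.55, Mnt to -0.15, Polr1b to -0.48, Polr1c to -0.01, Nolc1 to -0.22, Nop58 to -0.13, Rrp9 to -0.07, Dkc1 to -0.00, Gar1 to -0.21, Nhp2 to -0.10, Nop10 to -0.17, Wdr43 to -0.23, Rrp12 to -0.05, Tsr1 to -0.01, Heatr1 to -0.07 and Rrs1 to -0.51. The cause was not tested. Mnt in LPS+CPZ against LPS ranged from -0.12 to 0.08 with 1 library left out, above 0 in 4 cases, and Polr1b in LPS+CPZ against LPS+EtOH from -0.17 to 0.10, below 0 in 2 cases (-0.00 with a pseudocount of 5). A log2 change of at least 1 left 14 genes higher there, and a pseudocount of 5 or no filter left 29. Over all tested genes, the calls in LPS+EtOH against LPS were 7566 lower and 2230 higher as tested, 4705 and 4673 under median-ratio scaling, 3770 lower with the filter of 5 FPKM and 1179 higher with a log2 change of at least 1. In LPS+CPZ against LPS they were 5674 and 2432, 3096 lower with that filter, and 2013 and 1142 with a log2 change of at least 1. In LPS+CPZ against LPS+EtOH they were 1785 and 7195, 3863 and 3976 under median-ratio scaling, 3764 higher with that filter, and 849 and 2816 with a log2 change of at least 1. Libraries of one replicate number had correlations of deviations from -0.00645 to 0.26, above 0 in 8 of 9 cases, against -0.204 to 0.127 between libraries of different numbers. Not every pair passed 0.1 and the labels tie no number to a day or animal, so the libraries were treated as sharing only a number, and with the replicate block 42, 40 and 37 genes of the set were called in the 3 comparisons, Wdr43 being the one gained (adjusted p = 0.0239). With 3 pools in a group and an unknown depth, differences among the weakest transcripts, such as Wdr12, are the least certain.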
